A study of Mus musculus with 4 samples.

Results

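Wfdc2 and Wfdc16, a pair of secreted-protein genes on chromosome 2, were examined in mouse liver together with 8 markers of bile duct and progenitor cells: Krt7, Krt19, Krt23, Epcam, Sox9, Spp1, Cldn7 and Cftr. These 10 genes were taken by symbol from the 48709 Ensembl genes counted. Wfdc2 and Wfdc16 were chosen by their rise in this same comparison, that is by their counts in these 4 libraries, so it is described and not tested, whereas the other 8 were taken as known markers. Bulk liver RNA was sequenced as 4 mRNA libraries. The 2 WT libraries are from untreated C57BL/6 littermates that carry the floxed Ddi2 alleles (from Ddi2 tm1a(EUCOMM)Hmgu) on both chromosomes without Cre. The 2 DDI2-KO-labelled libraries are from untreated mice with the same floxed alleles and Cre under the albumin promoter, which is active in hepatocytes. Whether the bile duct cells of these mice carry the deletion is not given in the sources used here. Mice of both sexes, 6 to 12 weeks old, were used in the study, and neither is given for a single library.

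Between 22501208 and 34109018 reads per library fell on genes, so that 3 counts stood for 0.0880 to 0.133 CPM, the count scaled to a common library size. Reads assigned to no gene, relative to those on genes, came to between 4.70% and 5.11% in WT and to between 2.53% and 3.65% in the DDI2-KO-labelled libraries, and their part in the results below was not tested. Ddi2 itself, the targeted gene, had 4749 and 3812 reads in WT against 4068 and 3777 in the DDI2-KO-labelled libraries. Scaled, this was 141 and 123 CPM against 157 and 164 CPM, higher in both DDI2-KO-labelled libraries, with an adjusted p of 0.349 from edgeR. The floxed exon, exon 2, is 1.36% of the longest Ddi2 transcript, so a whole-gene count does not check the label. The hepatocyte markers Alb and Ttr stood at 61698 and 5446 CPM per kilobase in WT, the level of a liver sample.

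WFDC proteins are small secreted proteins built around a whey acidic protein domain, a fold held by 4 disulfide bonds, and several of them inhibit proteases. Wfdc2, known in humans as HE4, is made by many secretory epithelia. Bile ducts are lined by cholangiocytes, which differ from hepatocytes in carrying keratins 7 and 19, the adhesion protein EpCAM and the transcription factor SOX9, and which secrete chloride through the CFTR channel. Injury to the liver can enlarge this compartment, the ductular reaction, and then these markers rise together in whole-liver RNA. In bulk RNA, fewer cells of a type and less RNA per cell cannot be told apart.

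Wfdc2 (ENSMUSG00000017723) lies on the plus strand of chromosome 2 of GRCm38 from 164562413 to 164568510, and its longest annotated transcript has 5 exons. Wfdc16 (ENSMUSG00000070530) lies on the minus strand of the same chromosome from 164634707 to 164638796, with 1 annotated transcript of 4 exons. Their start sites are 76.4 kb apart. A stretch before the coding transcripts of each is shown because both genes were higher in the same libraries. It was read from the RefSeq promoter windows of GRCm38.p6, on each gene's own strand, 5′ to 3′, up to the base before the first annotated coding transcript, at chr2:164562465-164562578 for Wfdc2 and chr2:164638797-164639052 for Wfdc16. The Wfdc2 stretch lies inside the annotated span of the gene, since an annotated transcript without coding sequence starts upstream of it, at the gene start given above. Capitals mark CG dinucleotides.
Wfdc2: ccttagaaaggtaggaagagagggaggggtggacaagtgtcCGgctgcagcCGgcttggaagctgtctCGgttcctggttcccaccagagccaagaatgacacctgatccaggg
Wfdc16: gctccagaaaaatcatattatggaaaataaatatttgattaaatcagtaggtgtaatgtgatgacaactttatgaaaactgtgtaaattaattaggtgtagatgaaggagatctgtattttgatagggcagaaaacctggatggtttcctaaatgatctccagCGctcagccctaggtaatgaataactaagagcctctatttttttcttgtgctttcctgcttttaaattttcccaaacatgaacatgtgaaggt

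The 2 promoter windows read, 1 for each gene, were unlike each other in base composition. Over the whole window of 300 bases, that of Wfdc2 held 16 CG dinucleotides at a GC content of 65.3%, and that of Wfdc16 held 2 at 37.0%. Before the first annotated coding transcript lie 114 bases of the Wfdc2 window, with 3 CG dinucleotides, and 256 of the Wfdc16 window, with 1. The remaining bases lie past the start of that transcript, so the windows cover unlike parts of the 2 genes. The median over 32851 promoters of this length was 7 CG dinucleotides. In these 2 windows there was no match to the core of the antioxidant response element that NRF1 and NRF2 bind (TGACNNNGC, both strands), to the AP-1 motif (TGANTCA, both strands) or to a TATA box (TATAAA, on the gene's strand). Such matches occur in 12.4%, 7.81% and 8.32% of the 32851 promoters. Of the 10 genes, 8 had a window in the RefSeq table. For Wfdc2, Spp1 and Cldn7 it held 2 windows, of which 1 was read. The only match among the windows read was a TATAAA in that of Spp1.

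Wfdc2 had 52 and 88 reads in the WT libraries, against 729 and 563 in the DDI2-KO-labelled libraries. After TMM scaling by edgeR this was 1.55 and 2.85 CPM in WT and 28.2 and 24.5 CPM in the DDI2-KO-labelled libraries. The means were 2.20 ± 0.920 CPM (SD, n = 2) and 26.3 ± 2.59 CPM (SD, n = 2), a log2 change of 3.59 (standard error 0.29), or 12.01-fold. The lower DDI2-KO-labelled library lay far above the higher WT library, and the groups did not overlap. The groups also did not overlap in 55.7% of all genes tested, and in 28% they stood in this order. Since this contrast chose Wfdc2, the separation is a description only.

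Wfdc16, a further gene of the family, had 1 and 3 reads in WT against 32 and 34 in the DDI2-KO-labelled libraries. Scaled, this was 0.0297 and 0.0971 CPM against 1.24 and 1.48 CPM. WT was therefore at or under 3 counts in both libraries. Summed within groups, 66 reads stood against 4, a ratio of 21.8 after scaling, with an exact 95% interval of 8.12 to 82.3 that covers counting error only and is no test of the rise, which chose the gene. The fitted log2 change of 4.35 (standard error 0.61) depended on single WT libraries, being 5.31 without WT replicate 2 and 3.74 without WT replicate 1. Wfdc16 passed edgeR's filter on low counts, a minimum of about 10 counts in at least 2 libraries, through the DDI2-KO-labelled libraries, since neither WT library reached it. A gene that passes in this way had to be lower in both WT libraries, in CPM before TMM scaling, by however little.

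Among the 13699 genes that passed the filter, 1.33% were called higher in the DDI2-KO-labelled libraries and 1.2% lower (adjusted p under 0.05 in the quasi-likelihood test of edgeR, Benjamini-Hochberg). These were 182 and 164 genes, against 126 and 191 with upper-quartile factors and 230 and 148 with library totals. Nothing is read from the 2 Wfdc genes against these shares, since this contrast chose them. By fitted log2 fold change Wfdc16 ranked 4 and Wfdc2 ranked 5. In level per length, Wfdc2 rose from 1.93 to 23.1 CPM per kilobase of exon, or from above 43.5% to above 89.4% of the genes tested. Wfdc16 went from 0.0568 to 1.22 CPM per kilobase, which is above 34.5% of the genes tested in the DDI2-KO-labelled libraries.

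**Figure D1:**
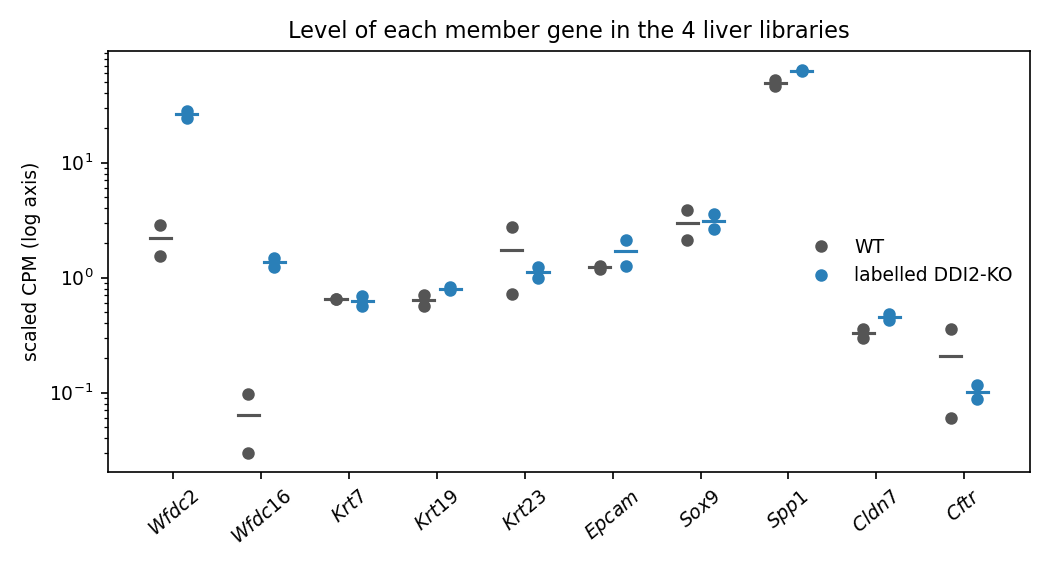
Scaled CPM of the 10 genes on a log axis, with a point for each of the 2 WT libraries (grey) and the 2 DDI2-KO-labelled libraries (blue) and a line at each group mean. Wfdc2 and Wfdc16 stand apart between the groups, at 2.20 against 26.3 CPM and 0.0634 against 1.36 CPM, while the points of the 8 markers lie close together or overlap.

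The biliary markers did not show such a change. Of the 8, 6 reached the minimum of the filter on low counts in all 4 libraries, and 0 of these 6 were called by edgeR, beside 2.53% of all genes tested. One of the 6, Spp1, had an unadjusted p under 0.05, as did 23.5% of all genes tested, and DESeq2 and limma-voom each called 0 of them, beside 7.1% and 0.993% of all genes tested. Their median log2 fold change was 0.19, with 4 above 0 and 2 below, beside a median of -0.015 over all genes tested. In 2 of the 6 (Krt19 and Spp1) the groups did not overlap, with DDI2-KO on top. The groups did not overlap in 55.7% of all genes tested, and in 28% they stood in this order. Cldn7 passed the filter through the DDI2-KO-labelled libraries alone and is given as values, and Cftr did not pass.

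The keratins are filament proteins, and keratins 7 and 19 are the classical stain for bile ducts. Krt19 had 19 and 22 reads in WT against 20 and 19 in the DDI2-KO-labelled libraries, or 0.639 ± 0.104 and 0.800 ± 0.0383 CPM (SD, n = 2). The fitted log2 change was 0.32 (adjusted p = 0.687 from edgeR), with a 95% interval of -0.63 to 1.28. A rise of Krt19 beyond 2.43-fold lies outside this interval.

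Krt7 had 22 and 20 reads in WT against 18 and 13 in the DDI2-KO-labelled libraries. The scaled levels of Krt7 overlapped, at 0.651 ± 0.00497 and 0.631 ± 0.0917 CPM (SD, n = 2), with a log2 change of -0.042 (95% interval -1.03 to 0.95, adjusted p = 0.965 from edgeR). Its sign turned when library totals replaced TMM scaling (0.0061) and without DDI2-KO replicate 2 (0.10), so it has no direction in these data. Krt23, a type I keratin that hepatocytes can also induce, had 24 and 85 reads in WT against 32 and 23 in the DDI2-KO-labelled libraries. WT replicate 2 alone was high in Krt23, at 2.75 CPM against 0.714 to 1.24 CPM in the other 3 libraries. Its log2 change of -0.62 (95% interval -2.04 to 0.81, adjusted p = 0.589 from edgeR) became 0.65 without that library.

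Among the surface proteins, Epcam (the adhesion molecule used to sort cholangiocytes and progenitors) had 40 and 39 reads in WT against 55 and 29 in the DDI2-KO-labelled libraries. One DDI2-KO-labelled library was higher than WT and the other lay within the WT range, with a log2 change of 0.47 (95% interval -0.39 to 1.33, adjusted p = 0.492 from edgeR). Cldn7, a tight junction claudin of epithelia, was near the detection limit, with 10 and 11 reads in WT against 11 and 11 in the DDI2-KO-labelled libraries. Both WT libraries of Cldn7 fell short of the minimum of the filter, which is 0.350 CPM before TMM scaling, so it too passed through the DDI2-KO-labelled libraries. Its scaled levels were 0.327 ± 0.0414 and 0.452 ± 0.0380 CPM (SD, n = 2), and this difference is a description only.

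Sox9, the transcription factor of bile duct development that also marks some periportal hepatocytes, had 71 and 120 reads in WT against 68 and 83 in the DDI2-KO-labelled libraries. The scaled values of Sox9 in the DDI2-KO-labelled libraries, 2.63 and 3.61 CPM, lay between those of WT, 2.11 and 3.88 CPM. The log2 fold change was 0.058 (95% interval -0.75 to 0.87, adjusted p = 0.942 from edgeR).

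Spp1 encodes osteopontin, a secreted protein of bile duct cells that macrophages and stellate cells also make. It was the most abundant of the markers, with 1745 and 1430 reads in WT against 1661 and 1434 in the DDI2-KO-labelled libraries. Scaled, this was 49.1 ± 3.97 CPM and 63.3 ± 1.25 CPM (SD, n = 2). The groups did not overlap, and the log2 change of 0.37 (95% interval 0.015 to 0.72) had an adjusted p of 0.199 from edgeR, which missed the threshold of 0.05 (0.0428 before adjustment). Over the alternatives its adjusted p ranged from 0.154 to 0.640. Of the exon bases of Spp1, 18.8% are shared with another annotated gene on the same strand, Gm42793, so reads from there can be lost to the count.

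Cftr, the chloride channel of the bile duct surface, did not pass the filter on low counts. It had 2 and 11 reads in WT against 3 and 2 in the DDI2-KO-labelled libraries. Summed, 5 reads stood against 13, a ratio of 0.508 after scaling, with an exact 95% interval of 0.142 to 1.52 for counting error. The interval includes equal levels, so no direction is read for Cftr at this depth. A rise beyond 1.52-fold lies outside the interval, which does not cover the spread between libraries.

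**Figure D2:**
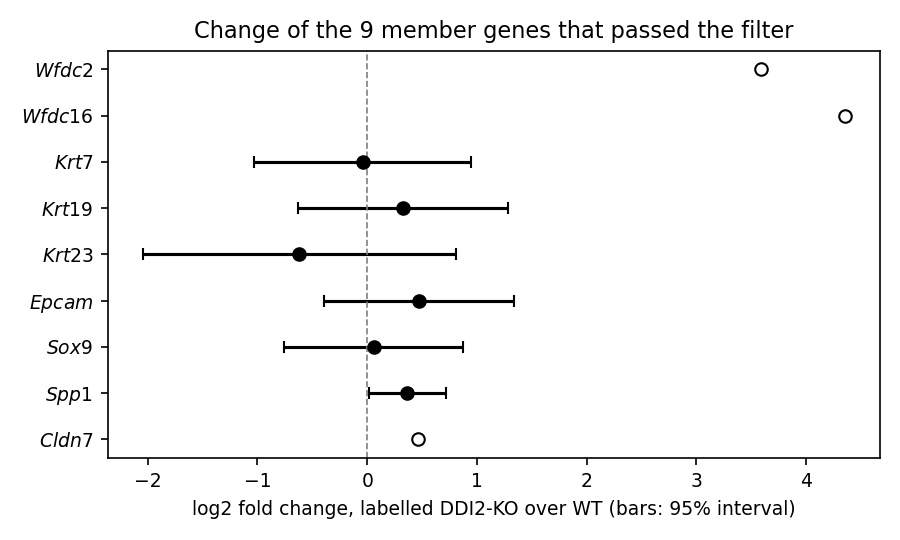
Fitted log2 fold change of the 9 genes that passed the filter, DDI2-KO-labelled libraries over WT. Filled points carry bars for the 95% interval, which include 0 for 5 of the 6 markers drawn so and start at 0.015 for Spp1. Open points, without an interval, are the 2 Wfdc genes at 3.59 and 4.35, which this contrast chose, and Cldn7 at 0.46, which passed the filter through one group.

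Ordered by CPM per kilobase of exon, Spp1 was the highest of the 10 genes in both groups, at 29.8 in WT and 38.4 in the DDI2-KO-labelled libraries. In WT, Wfdc2 (1.93) came next, followed by Krt23 (1.11), Sox9 (0.725) and Epcam (0.559), and each of these overlapped its neighbour in the order between libraries. Krt19 (0.344), Cldn7 (0.168) and Krt7 (0.0923) followed without overlap, and Wfdc16 (0.0568) and Cftr (0.0268) came last and overlapped. In the DDI2-KO-labelled libraries, Wfdc2 (23.1) stayed next to Spp1, and Wfdc16 (1.22) stood above the 7 markers other than Spp1, of which Epcam (0.771), Sox9 (0.754) and Krt23 (0.715) overlapped.

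Within a library, Wfdc2 can be set against the markers with no scaling between libraries. The 8 markers together had 1933 and 1738 reads in WT against 1868 and 1614 in the DDI2-KO-labelled libraries. Scaled, this was 57.5 and 56.3 CPM against 72.2 and 70.2 CPM, which did not overlap. For each 100 of these marker reads there were 2.69 and 5.06 Wfdc2 reads in WT against 39.0 and 34.9 in the DDI2-KO-labelled libraries. Spp1 supplied most of the marker reads. The other 7 markers had 188 and 308 reads in WT against 207 and 180 in the DDI2-KO-labelled libraries, so that for each of their reads there were 0.277 and 0.286 Wfdc2 reads in WT against 3.52 and 3.13 in the DDI2-KO-labelled libraries. The 7 markers include Krt23, with 24 reads in WT replicate 1 and 85 in WT replicate 2. Against all 8 markers the 2 WT ratios were unlike, so nothing is read from their nearness here. The summed level of the 7 markers in the other group, 7.997 and 7.83 CPM, lay inside the WT range of 5.59 to 9.97 CPM. Wfdc16 made up 1.89% and 3.30% of the reads of the Wfdc pair in WT and 4.20% and 5.70% in the DDI2-KO-labelled libraries. The exact 95% intervals of these shares overlapped, from 0.0478% to 10.1% and 0.685% to 9.33% in WT and from 2.89% to 5.88% and 3.98% to 7.87% in the DDI2-KO-labelled libraries.

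**Figure D3:**
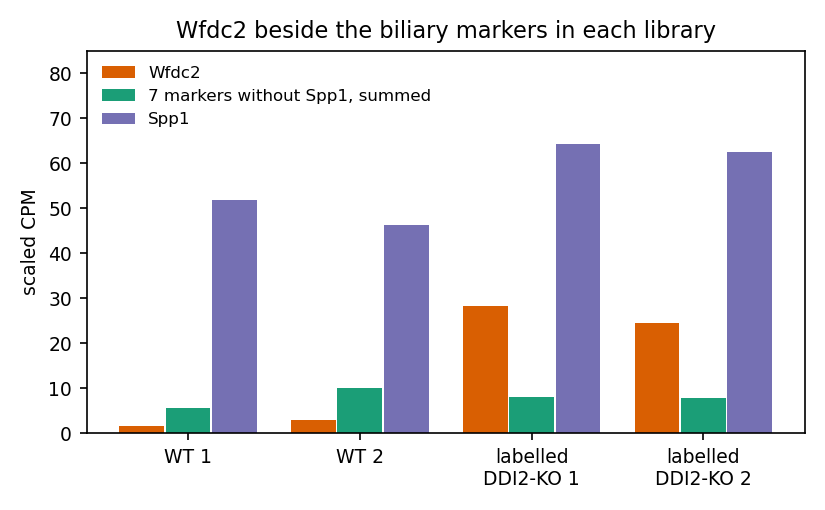
Scaled CPM in each of the 4 libraries of Wfdc2 (orange), the sum of the 7 markers other than Spp1 (green) and Spp1 (purple), with bars from 0. Wfdc2 is below the green bar in both WT libraries and above it in both DDI2-KO-labelled libraries, where the green bars, at 7.997 and 7.83 CPM, lie inside the WT range.

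A longer list of 43 other biliary epithelial genes, without the markers above, was read in the same fit. Of these, 33 were tested, with 2 called higher and 0 lower, beside 1.33% and 1.2% of all genes tested. Without WT replicate 1 the one call in this list was lower and 0 were higher. Their log2 fold changes were above 0 in 17 and below in 16, with a median of 0.0043. Car2, the carbonic anhydrase that supplies bicarbonate, had 363 and 337 reads in WT against 653 and 499 in the DDI2-KO-labelled libraries, a log2 change of 1.11 (adjusted p = 0.0295 from edgeR). Pdzk1ip1, a small membrane protein of epithelia, had 162 and 225 reads against 400 and 303, a log2 change of 1.24 (adjusted p = 0.0438 from edgeR). Without WT replicate 1 neither passed, with adjusted p values from edgeR of 0.113 for Car2 and 0.189 for Pdzk1ip1. Car2 also missed the threshold without WT replicate 2 (adjusted p = 0.0842) and Pdzk1ip1 without DDI2-KO replicate 1 (0.0784), with upper-quartile factors (0.0507) and under limma-voom (0.0591).

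The most abundant genes of that list by length were Aqp1, a water channel of bile ducts and endothelium, and Anxa5, an annexin of many cell types. Aqp1 had 5078 and 3332 reads in WT against 6009 and 5703 in the DDI2-KO-labelled libraries, with a log2 change of 0.89 (adjusted p = 0.0613 from edgeR), and Anxa5 had a log2 change of 0.26 (adjusted p = 0.439). Genes that specify or mark progenitors, or that belong to the Notch and YAP pathways of duct formation, numbered 35, of which 30 were tested. There was 1 called higher and 0 lower, beside 1.33% and 1.2% of all genes tested, with a median log2 change of -0.033. The one called was Ccn1, a matricellular YAP target that many other signals also induce, with 320 and 237 reads in WT against 663 and 929 in the DDI2-KO-labelled libraries (log2 fold change 1.94, adjusted p = 0.0189 from edgeR).

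The other keratins and claudins numbered 69, of which 43 had no read in any library and 10 were tested. None of the 10 was called by edgeR, DESeq2 or limma-voom, beside 2.53% of all genes tested in edgeR, and 3 had an unadjusted p under 0.05 from edgeR, beside 23.5%. Krt18, the hepatocyte partner of keratin 8, had 4737 and 5691 reads in WT against 4696 and 3158 in the DDI2-KO-labelled libraries (log2 fold change -0.028, adjusted p = 0.953 from edgeR). Cldn2, a pore-forming claudin of hepatocytes, had a log2 change of 0.33 (adjusted p = 0.333). The count for the family was 0 with 1 exception, being 1 lower without DDI2-KO replicate 1.

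The rest of the WFDC family was mostly silent in liver. Of 24 further family genes listed, 23 were matched, 12 had no read in any library and 4 passed the filter on low counts. None of these 4 was called by edgeR, DESeq2 or limma-voom, beside 2.53%, 7.1% and 0.993% of all genes tested by each. None had an unadjusted p under 0.05 from edgeR, beside 23.5%, and with 4 genes nothing is read from these counts of 0. All 4 had a log2 fold change above 0, as had 6672 of the 13699 genes tested. Their median was 0.55, beside -0.015 over all genes tested.

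Wfdc21, the most abundant of the family at 338 CPM per kilobase in WT, had 6730 and 2869 reads in WT against 6485 and 4220 in the DDI2-KO-labelled libraries. The groups overlapped, with a log2 change of 0.57 (95% interval -0.35 to 1.48, adjusted p = 0.414 from edgeR). Wfdc17, expressed by macrophages, had 958 and 511 reads against 642 and 876 (0.48, adjusted p = 0.392), and Wfdc1 had 108 and 105 against 145 and 91 (0.53, adjusted p = 0.261). Slpi, the secretory leukocyte protease inhibitor, had 8 and 24 reads in WT against 28 and 24 in the DDI2-KO-labelled libraries (log2 fold change 1.08, 95% interval -0.20 to 2.35, adjusted p = 0.281 from edgeR).

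Of the untested relatives, Wfdc3 had 5 and 32 reads in WT against 2 and 5 in the DDI2-KO-labelled libraries. Wfdc18 had 7 and 5 against 2 and 4, Wfdc15b had 2 and 8 against 3 and 2, and Wfikkn1 had 2 and 5 against 5 and 1. None of these 4 stood higher in both DDI2-KO-labelled libraries.

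Many WFDC genes of chromosome 2 lie near Wfdc2 and Wfdc16, and between these 2 genes lie 7 counted genes. Of these, 6 had no read in any library, and Wfdc6a had 2 reads in a single DDI2-KO-labelled library. Of the 37 genes that start within 200 kb of either, 18 had no read in any library, 14 had at least 10 reads in a library and 12 were tested. None of the 12 was called by edgeR, DESeq2 or limma-voom, beside 2.53% of all genes tested in edgeR, while 2 had an unadjusted p under 0.05 from edgeR, beside 23.5%. Their log2 fold changes ran from -0.45 to 0.58 with a median of -0.12.

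The neighbours with at least 10 reads in a library were Sdc4, Sys1, Gm14302, Dbndd2, Pigt, Wfdc3, Dnttip1, Ube2c, Snx21, Acot8, Zswim3, Zswim1, Neurl2 and Ctsa. Sdc4, a heparan sulfate proteoglycan 119 kb before Wfdc2, had 7822 and 6516 reads in WT against 7822 and 7053 in the DDI2-KO-labelled libraries (log2 fold change 0.46, adjusted p = 0.158 from edgeR). Pigt, a subunit of the GPI transamidase and the tested neighbour whose start site is nearest to that of Wfdc2, had 1615 and 1218 reads against 1019 and 804 (-0.23, adjusted p = 0.448). Ctsa, the lysosomal protective protein, had a log2 change of 0.069 (adjusted p = 0.840).

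**Figure D4:**
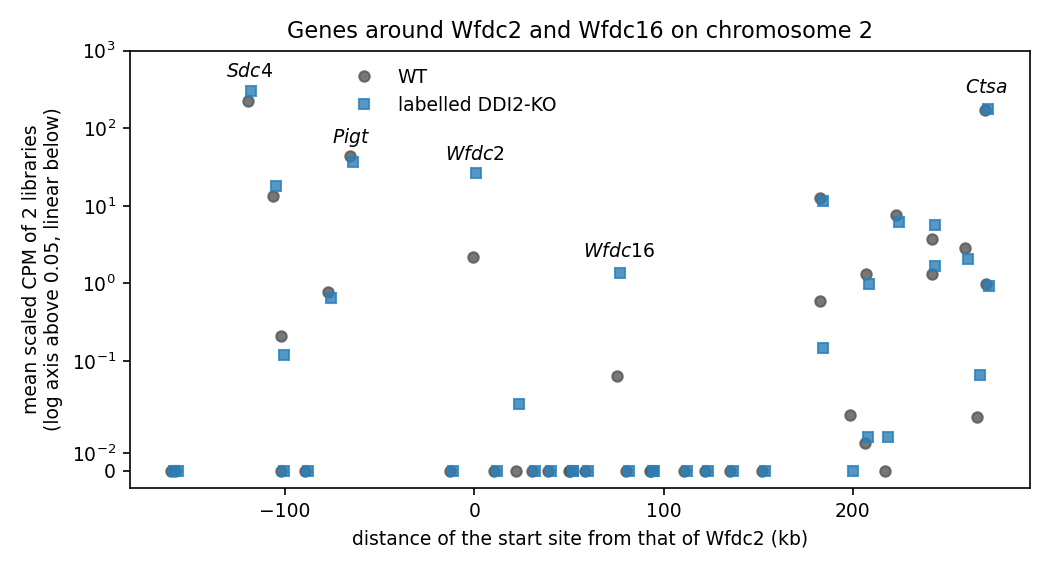
Mean scaled CPM of the 2 libraries of each group for counted genes starting within 200 kb of Wfdc2 or Wfdc16, against the distance of each start site from that of Wfdc2 in kb; the vertical axis is logarithmic above 0.05 and linear below it. WT (circles) and DDI2-KO-labelled libraries (squares) lie far apart at Wfdc2 and Wfdc16, and the genes between them lie at or near 0.

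Over the 4 libraries, the gene whose centred log2 level lay nearest to that of Wfdc2 was Wfdc16 (root-mean-square distance 0.27), followed by Aqp7, Adcy1, Gm28548 and Mir703. With 4 libraries this likeness is little more than the difference between the groups that chose the pair, for which 0.1 CPM was added before taking logs. Of the 2 other values, chosen after seeing the data, 0.02 CPM left Wfdc16 nearest with 4 of the 5 nearest genes shared. With 0.5 CPM Wfdc16 ranked 14 of 13698 and 1 of the 5 was shared.

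Markers of the other cells of a liver sample were counted beside the Wfdc pair, since a secreted epithelial protein can come from cells other than hepatocytes. The 8 mesothelial markers summed to 19.6 and 27.5 CPM in WT and 24.2 and 26.3 CPM in the DDI2-KO-labelled libraries, so that the groups overlapped. Of these, 6 were tested and 0 called by edgeR, DESeq2 or limma-voom, beside 2.53%, 7.1% and 0.993% of all genes tested by each. Of the 8 pancreatic acinar markers, 6 had no read in any library and 2 were tested, with 0 called by any of the 3 tools, and the sum of 15.1 and 11.97 CPM lay between the WT sums of 20.0 and 6.89 CPM. The 8 neutrophil markers summed to between 2.38 and 3.44 CPM over the 4 libraries, with 0 of the 3 tested called by any tool.

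Kupffer cell markers summed to 803 and 684 CPM in WT and 878 and 721 CPM in the DDI2-KO-labelled libraries, and stellate cell markers to 500.2 and 560 against 491 and 491 CPM. The Kupffer cell sums overlapped, and the stellate cell sums did not, with the DDI2-KO-labelled libraries lower. All 8 stellate cell genes had a log2 fold change below 0 (median -0.20), as had 7027 of the 13699 genes tested. All 8 genes of each list were tested. None was called by edgeR, DESeq2 or limma-voom, beside 2.53%, 7.1% and 0.993% of all genes tested by each. An unadjusted p under 0.05 from edgeR came with 3 Kupffer cell genes and 1 stellate cell gene, beside 23.5% of all genes tested. The hepatocyte list, of which 0 of 8 were called by these tools and 1 had an unadjusted p under 0.05, summed to 154884 and 180016 CPM in WT and 145978 and 149930 CPM in the DDI2-KO-labelled libraries. These hepatocyte sums did not overlap, with the DDI2-KO-labelled libraries lower, while 4 of the genes had a log2 fold change above 0 and 4 below. The sinusoidal endothelial markers summed to 636 and 552 CPM in WT and 611 and 593 CPM in the DDI2-KO-labelled libraries, so that the groups overlapped. Of these 8, 5 had a log2 fold change above 0 and 3 below, with a median of 0.074. Only the hyaluronan receptor gene Stab2 was called, lower, with a log2 change of -1.10 (adjusted p = 0.0288 from edgeR). Without WT replicate 1 the log2 change of Stab2 was -0.96, and that fit, with a lone WT library, does not back the call. Lists of at most 8 genes are too short for a count of 0 to show that a cell type was unchanged. The part of any of these cell types in the Wfdc2 and Wfdc16 levels was not tested.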

How the data were processed

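RNA was extracted with the RNeasy kit and sequenced from stranded mRNA libraries. The authors deposited raw counts of reads per Ensembl gene for each library. The submitters' processing notes name cutadapt 1.8, STAR 2.5.2b, HTSeq 0.6.1 and GRCm38, and the annotation release and strand setting are not given in the sources used here. The 5 summary lines after the genes were left out of totals. Reads aligned to several places were not counted. Their tally, relative to reads on genes, was 65.8% and 51.8% in WT against 49.2% and 47.3% in the DDI2-KO-labelled libraries. The part of this difference in the results was not tested. None of the stretches of 50 bases in the Wfdc2 and Wfdc16 transcripts occurs in another gene. Symbols and coordinates are from GENCODE M21 (GRCm38), which holds 48349 of the 48709 identifiers.

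Expression was compared in R 4.3.3 with edgeR 4.0.16 (TMM, filterByExpr, glmQLFit with robust estimation, glmQLFTest) over all genes that passed the filter, with Benjamini-Hochberg adjustment and a threshold of 0.05. Standard errors are the log2 fold change divided by the square root of F, and 95% intervals use the test's degrees of freedom. CPM are TMM-scaled, and CPM per kilobase uses the union of annotated exons. Alternatives were RLE and upper-quartile factors, library totals, DESeq2 1.42.0 and limma-voom (limma 3.58.1). Further ones were no filter on low counts, a replicate block and leaving out each library. The study used an earlier version of limma with a moderated t-test and does not name voom. The test was tested on simulated data.

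Genes named are the 10 members, listed genes past the threshold and the 2 most abundant per list, WFDC genes of at least 0.1 CPM, neighbours within 200 kb with at least 10 reads in a library, and the 5 genes nearest to Wfdc2 in pattern. Ddi2, the targeted gene, is given although its whole-gene count does not check the labels. Ddi2, Gm42793 and Wfdc6a fall outside this rule, the last pair named after their values were seen. The members and lists were chosen with earlier results of these data known. Replicates are the samples the labels number, and the study calls them biological replicates. The spread within a group exceeded counting noise (chi-square of 64.7 in WT and 34.7 in DDI2-KO, each per degree of freedom). With 2 libraries per group, their number limits the precision, and intervals on counts cover counting error only.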

Additional observations from a re-analysis of the deposited data

How the results depend on the processing

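The count of biliary markers called and that of other WFDC genes called stayed at 0 under the alternatives run. Of the log2 fold changes of the 10 genes, those of Krt7, Krt23 and Sox9 changed sign, as did the ratio of Cftr. Krt7 became 0.0061 with library totals only and lay between -0.20 and 0.10 with single libraries left out. Likewise Krt23 ranged from -1.29 to 0.65, Sox9 from -0.32 to 0.56 and Cftr from -1.81 to 0.77. Wfdc2 ranged from 3.21 to 4.09 and Wfdc16 from 3.74 to 5.31 with single libraries left out, and from 3.53 to 3.65 and 4.27 to 4.45 under the other alternatives.

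All genes called numbered 346 with edgeR as described, 903 under DESeq2, 1544 with no count filter and 136 under limma-voom, and from 153 to 631 with single libraries left out. The other biliary genes called numbered 2 with edgeR as described, 1 with upper-quartile factors, 4 under DESeq2, 1 under limma-voom and 4 without the filter, and from 1 to 2 with single libraries left out. DESeq2, the fit without the filter and the replicate block each gave 3 higher and 1 lower, and without WT replicate 1 the one call was lower. The progenitor, Notch and YAP genes called numbered 1 with edgeR as described, 2 with library totals only, 4 under DESeq2 and 3 without the filter, and from 1 to 4 with single libraries left out. The keratins and claudins called numbered from 0 to 1 with single libraries left out. The cause of these shifts was not tested.

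Same-numbered libraries had a correlation of deviations of 0.059, so the replicate numbers were not taken as pairs. With a replicate block 1108 genes were called over all, 4 of the other biliary genes and 3 of the progenitor, Notch and YAP genes.

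For genes of few reads the depth limits the result: Wfdc16 in WT was at or under 3 counts, Cftr had from 2 to 11 reads per library and Cldn7 10 or 11. A fit without 1 library assumes that the lone library of its group varies like the other group.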
